A study of Mus musculus with 44 samples.

Results

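The proteasome genes described here are those whose symbol begins with Psma, Psmb, Psmc, Psmd, Psme or Psmg followed by a number, except the immunoproteasome genes *Psmb8*, *Psmb9* and *Psmb10*, and that reached 1 CPM (reads on the gene scaled to a common library size) in at least 5 of 44 libraries. Of 14699 genes in the deposited table, 46 fitted the symbol rule and 45 passed this filter, as did 11963 genes overall. The gene that failed was *Psmb11*, the thymus form of a catalytic subunit. RNA was sequenced from CD45+CD11c+MHCIIhigh cells, the migratory dendritic cells of the draining lymph node, sorted 24 h after injection at zeitgeber time ZT3, ZT9, ZT15 or ZT21 (hours after lights on). Control mice, whose genotype is labelled WT, received B16-F10-OVA melanoma cells (20 libraries, 5 per timepoint) or PBS as a sham injection (12 libraries, 3 per timepoint). Mice labelled KO (12 libraries, 3 per timepoint) received B16-F10-OVA cells and carried *Clec9a-cre*, a Cre active in conventional dendritic cells, with both alleles of *Bmal1* (gene symbol *Arntl*) floxed. Mice were females of 8 to 12 weeks, and each library came from 1 mouse.

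The proteasome degrades proteins that carry ubiquitin chains. Its barrel, the 20S core, is built from rings of alpha subunits (Psma genes), which gate the entrance, and of beta subunits (Psmb genes), some of which cut the peptide bond. The 19S cap binds the core through a ring of ATPases (Psmc genes) that unfold the substrate, and its other subunits (Psmd genes) bind, release and recycle ubiquitin. Other activators (Psme genes) open the core without ubiquitin, and Psmg genes and some Psmd genes encode chaperones that assemble the particle. In dendritic cells the proteasome also supplies the peptides that MHC class I presents, largely through the interferon-inducible immunoproteasome.

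Not every gene that fits the symbol rule encodes a subunit of the common particle. *Psma8* is the testis form of an alpha subunit, *Psme2b* is a retrogene copy of *Psme2*, and *Psmc3ip* encodes a recombination cofactor that is named after an ATPase subunit and is no part of the proteasome. The remaining genes were 7 of the alpha ring and 7 of the beta ring (the 14 core genes), 6 ATPases, 3 other genes of the base and 8 of the lid (the 17 cap genes), 4 activators besides *Psme2b*, 3 chaperones of the base and 4 of the core.

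With tumour cells, the libraries of control mice held 20088012 to 28962671 reads on genes and those labelled KO 29406729 to 55799163, and sham-injected mice gave 28003328 to 49590055, as inferred from the steps between the lowest values of each library. The libraries labelled KO were therefore all deeper than those of control mice with tumour cells, and depth and group cannot be told apart in that comparison. Sham-injected mice overlapped control mice with tumour cells only at the ends of their ranges (medians 37898704 and 23707306 reads). Depth and treatment can therefore hardly be told apart either. Each of 14 dendritic-cell markers, among them *Itgax*, *Flt3* and *Ccr7*, was above 0 in every library, with sums of 25992 to 39487 CPM. The targeted gene *Arntl* exceeded its level in control mice with tumour cells by 0.38 (log2) in the libraries labelled KO (standard error 0.12, limma adjusted p = 0.0153). In control mice *Arntl* was 0.52 lower with tumour cells than with PBS (standard error 0.13, limma adjusted p = 0.00161). Mice labelled KO differed from sham-injected mice by -0.14 (standard error 0.17, limma adjusted p = 0.623). Totals over the whole gene do not show whether the floxed exon was read, so mice labelled KO are named by their label throughout. One library stood apart: in replicate 1 of mice labelled KO at ZT21 the 45 genes summed to 9126 CPM, the ribosomal protein genes summed to 13207 CPM and 11461 genes were above 0, the lowest of all 44 libraries in each respect. The main counts, and the values of genes described below that it moved most, are also given without it.

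Levels were compared between genes as CPM per kb of exon sequence. The activator genes *Psme2* and *Psme1*, whose products form the interferon-inducible PA28 ring, were the highest of the 45, with means over all libraries of 1480 ± 193 and 575 ± 64.5 CPM per kb (SD, n = 44). *Psma8* was the lowest, with 0.398 ± 0.257 CPM per kb (SD, n = 44), and was listed at 0 in at least 1 library of each tumour group. Most values of *Psme2* are fractions of a read (2.27% are whole), and all those of its copy *Psme2b* are, so the level of either gene depends on how reads shared between genes were divided, which is not given in the sources used here.

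**Figure D1:**
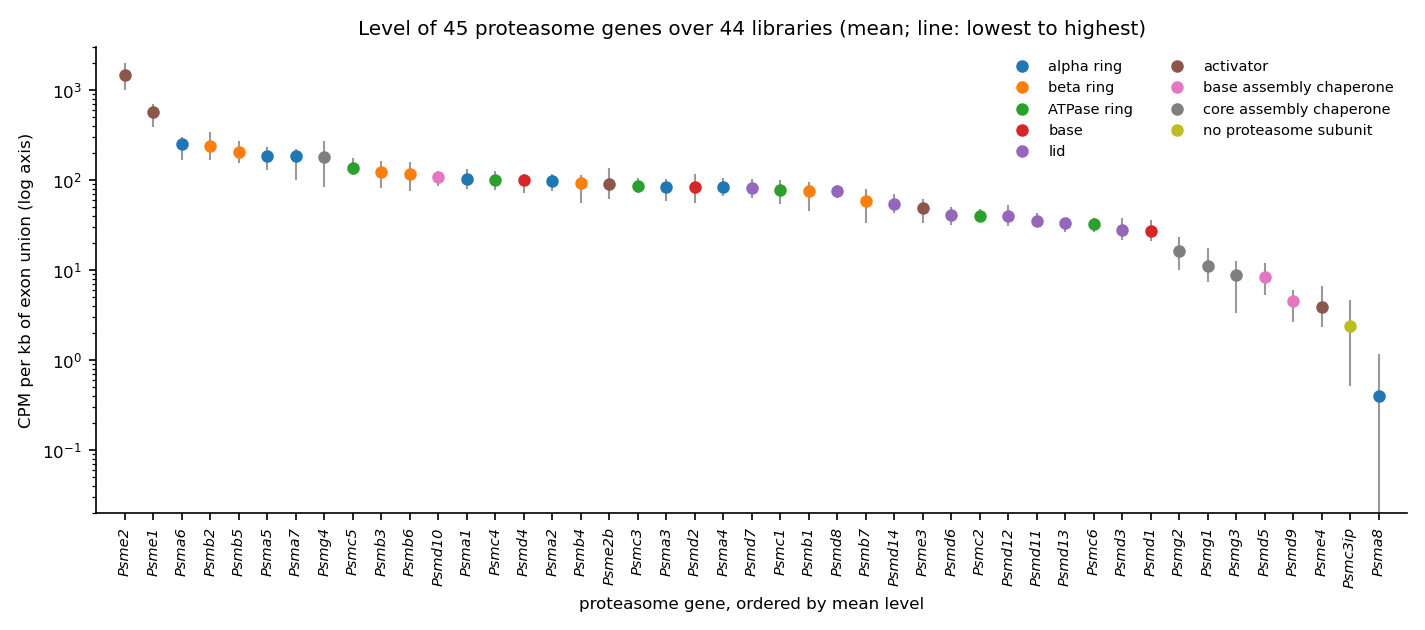
Level of each of the 45 genes in CPM per kb of exon union on a log axis, as the mean over 44 libraries (point, coloured by role) and the lowest to the highest library (line, which for *Psma8* runs to 0 and leaves the axis). The genes of the core lie between *Psma6* at 253 and *Psmb7* at 57.6, and *Psme2* and *Psme1* lie above all of them.

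Core genes ranged from *Psma6*, an alpha subunit (253 ± 26.0 CPM per kb, SD, n = 44), to *Psmb7*, which carries the trypsin-like activity (57.6 ± 8.13), and the cap genes from the ATPase *Psmc5* (135 ± 13.8) to *Psmd1*, the largest scaffold of the base (27.2 ± 3.66). The core genes together were thus higher than the cap genes, with a ratio of their mean levels per kb of 2.14 at the median library and 2.68 at the highest. The lowest ratio, 1.502, belonged to the library that stood apart. Chaperones of the core assembly were lower than the subunits they assemble, with 8.77 ± 1.68 for *Psmg3*, 11.0 ± 2.29 for *Psmg1* and 16.3 ± 2.995 for *Psmg2*, except *Psmg4* with 181 ± 41.4 CPM per kb. The other activators were far below PA28: *Psme3*, which encodes the nuclear form, had 48.4 ± 6.35, and *Psme4*, which encodes the single-chain activator PA200, had 3.91 ± 0.887 CPM per kb.

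The constitutive catalytic genes *Psmb5*, *Psmb6* and *Psmb7* were set against their immunoproteasome counterparts, which are not among the 45 genes. The mean level per kb of *Psmb8*, *Psmb9* and *Psmb10* was 2.71 times that of the constitutive genes at the median library of control mice with tumour cells (2.42 to 2.99), 2.34 times in mice labelled KO (2.19 to 2.6997) and 2.48 times in sham-injected mice (2.23 to 2.95). In each of the 44 libraries the mean of the immunoproteasome genes was the higher one, although *Psmb9* alone, at 184 CPM per kb, was below *Psmb5* at 205, and the ranges of the groups overlapped. The order of single genes depends on the length used. With the longest transcript in place of the exon union, *Psma7* had 370 in place of 183 CPM per kb and *Psmb2* 332 in place of 237. *Psmb9*, at 234 CPM per kb of the longest transcript, was then above *Psmb5* at 205.

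The study asked which genes of these cells vary with the time of day. Among the 45 proteasome genes the main limma fits called no change with time. An alternative fit, limma with array weights, called 3 of 45 in control mice with tumour cells (20.6% of all genes). With tumour cells in control mice, a limma F test over the timepoints called 0 of 45 genes at an adjusted p under 0.05, against 5.28% of all genes tested, and 1 of 45 (2.22%) had an unadjusted p under 0.05, against 23.1% of all genes. In mice labelled KO and in sham-injected mice 0 of 45 were also called by limma, where no gene of the table was, and 0 and 2 had an unadjusted p under 0.05, against 10.3% and 7.44% of all genes.

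Fitting a 24-h rhythm (limma cosinor) again called 0 of 45 in each group, against 0.0251% of all genes in control mice with tumour cells and 0.0% in the others, and 0, 1 and 5 members had an unadjusted p under 0.05 in control, KO-labelled and sham-injected mice, against 9.2%, 10.5% and 7.38% of all genes. Setting ZT9 against ZT21 with limma likewise called 0 of 45 in each group, against 0.226%, 0.00836% and 0.0% of all genes (in control mice with tumour cells 0.092% higher and 0.134% lower at ZT9, and 0.0669% at least 2-fold). Here 0, 2 and 3 members had an unadjusted p under 0.05, against 11.5%, 10.9% and 5.32%.

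The timepoint means of the proteasome genes also lay close together. The distance between the highest and the lowest of the 4 timepoint means of a gene had a median of 0.16 on the log2 scale in control mice with tumour cells, 0.22 in mice labelled KO and 0.18 in sham-injected mice, against 0.39, 0.50 and 0.43 over all genes tested. It was under 0.25 for 38, 26 and 36 of the 45 genes (84.4%, 57.8% and 80%), against 26.5%, 17.8% and 22.6% of all genes. In mice labelled KO it was under 0.25 for 31 genes without the library that stood apart, with a median of 0.20. The SD between mice of 1 timepoint was of similar size, with a median over the 45 genes of 0.13, 0.17 and 0.14. All genes include many of low expression with a larger spread, so these shares are a description and not a test of the proteasome genes.

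The interval of the difference between ZT9 and ZT21 bounds that contrast only, and not a rhythm with its peak near ZT3 or ZT15. The 95% confidence interval of ZT9 minus ZT21 lay within ±0.5 on the log2 scale for 38 of 45 genes in control mice with tumour cells, for 18 in mice labelled KO and for 35 in sham-injected mice. It lay within ±1, a 2-fold change, for 44, 42 and 44 genes. Without the library that stood apart 30 genes lay within ±0.5 in mice labelled KO and 42 within ±1.

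**Figure D2:**
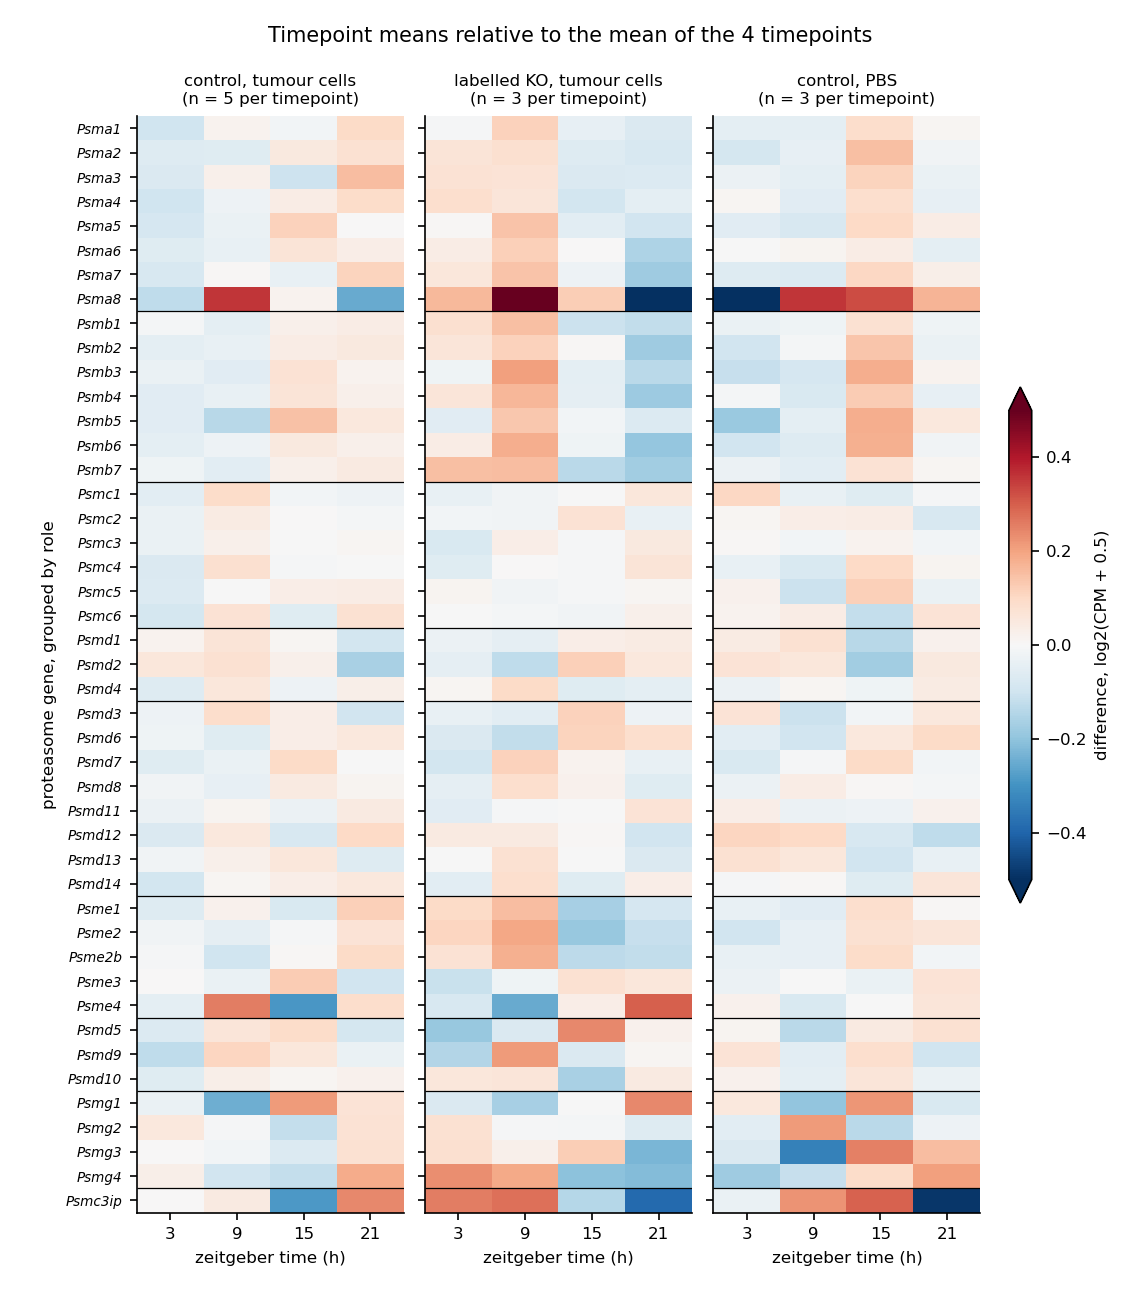
Timepoint means of log2(CPM + 0.5) of each gene, relative to the mean of its 4 timepoints, in the 3 groups; the colour scale ends at ±0.5, and lines separate the roles (alpha ring, beta ring, ATPases, base, lid, activators, base chaperones, core chaperones, *Psmc3ip*). The genes whose timepoint means spanned over 0.4 in a group were *Psma8*, *Psmc3ip*, *Psme4*, *Psmg1*, *Psmg3*, *Psmg4* and *Psmd5*, and the timepoint with the highest values differs between the groups.

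The catalytic subunits illustrate these values. *Psmb5*, which carries the chymotrypsin-like activity, had 175 ± 26.9, 165 ± 12.7, 201.5 ± 27.9 and 188 ± 11.6 CPM at ZT3, ZT9, ZT15 and ZT21 in control mice with tumour cells (SD, n = 5 each). In sham-injected mice it had 170 ± 10.9, 187 ± 8.63, 220 ± 20.4 and 201.7 ± 21.8 CPM (SD, n = 3 each), and in mice labelled KO 172 ± 6.91, 196 ± 9.5, 177 ± 9.65 and 171 ± 22.8 CPM. The highest mean was at ZT15 in both control groups but at ZT9 in mice labelled KO. *Psmb6*, the caspase-like subunit, had timepoint means of 203 to 216 CPM with tumour cells in control mice, 193 to 248 in those labelled KO and 225 to 273 with PBS. *Psmb7* had 206 to 219, 158 to 195 and 183 to 199 CPM. At ZT21 in mice labelled KO, the means without the library that stood apart were 184 CPM for *Psmb5*, 219 CPM for *Psmb6* and 181 CPM for *Psmb7* (n = 2), so that the lowest mean of *Psmb6* was then that at ZT15 (213 CPM).

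Of the cap, the ubiquitin receptor *Psmd4* had timepoint means between 270 and 293 CPM in control mice with tumour cells, 253 and 282 in mice labelled KO and 283 and 297 in sham-injected mice. The deubiquitinase *Psmd14*, which removes ubiquitin from the substrate, had 138 to 152, 150 to 166 and 156 to 170 CPM. Without the library that stood apart the ZT21 mean of *Psmd4* in mice labelled KO was 286 in place of 258 CPM. Neither gene was called for time in any group.

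*Psme4* had the smallest p for time in control mice with tumour cells (limma, adjusted p = 0.161). Its timepoint means were 34.9 ± 7.03, 43.25 ± 9.29, 29.3 ± 5.31 and 38.0 ± 4.97 CPM (SD, n = 5 each), highest at ZT9, whereas in mice labelled KO its highest mean was at ZT21 (37.0 ± 4.96) and its lowest at ZT9 (25.2 ± 4.89, SD, n = 3 each). *Psma8*, at about 1 CPM, had the smallest p in the other groups. In sham-injected mice it had 0.224 ± 0.0842 CPM at ZT3 against 1.19 ± 0.325 at ZT9 (SD, n = 3 each; limma adjusted p = 0.441), and in mice labelled KO 1.65 ± 0.968 at ZT9 against 0.143 ± 0.247 at ZT21. Without the library that stood apart, the ZT21 mean of *Psma8* in mice labelled KO was 0.214 CPM (n = 2). Neither *Psme4* nor *Psma8* passed the adjusted threshold in any group.

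The 45 genes did not share a peak time across groups. Among control mice with tumour cells the highest timepoint mean was at ZT21 for 21 genes, at ZT9 and ZT15 for 12 each, and at ZT3 for 0. In mice labelled KO it was at ZT9 for 25 genes and at ZT21 for 8 (22 and 13 without the library that stood apart), and in sham-injected mice at ZT15 for 27. These counts are descriptions, since the genes of 1 library share its composition.

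Whether the time course differed between genotypes or treatments was tested by interaction. With limma, 0 of 45 genes had a genotype by time interaction (against 0.0502% of all genes), and 1 had an unadjusted p under 0.05 (*Psme4*), against 18.3% of all genes. Leaving out single libraries gave 0 of 45 (0.0334% to 2.6% of all genes), with 0 to 10 at an unadjusted p under 0.05. The treatment by time interaction called 0 of 45 with limma (0.0% of all genes), with 3 at an unadjusted p under 0.05 (*Psmc3ip*, *Psmd12* and *Psmg3*), against 11.9% of all genes.

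Differences between the groups, averaged over the 4 timepoints, were called more often than differences over time, as they were among all genes. The genotype and treatment comparisons used 32 libraries each and the time tests 20 or 12, so these frequencies are not directly comparable. Between mice labelled KO and control mice, both with tumour cells, 21 of 45 genes (46.7%) differed with limma at an adjusted p under 0.05, against 33.7% of all genes tested. Of these, 14 were higher in mice labelled KO (31.1%, against 23.5% of all genes) and 7 lower (15.6%, against 10.2%), and 0 differed 2-fold (3.59% of all genes). Leaving out each of the 32 libraries in turn gave 18 to 22 calls (30.9% to 34.1% of all genes). All 21 kept their sign, 18 were called in every omission, and the proteolytically inactive beta subunit gene *Psmb1* (called in 13 of 32), the base scaffold gene *Psmd2* (24 of 32) and the chaperone gene *Psmg3* (31 of 32) were not. Without the library that stood apart, which is among these 32 omissions, 20 were called, with the share of all genes within the range given above. *Psmb1* (limma adjusted p = 0.102) and *Psmd2* (limma adjusted p = 0.0548) were not called. The lid gene *Psmd7* was called in addition (limma adjusted p = 0.0273), and the difference of *Psmg3* was -0.19 in place of -0.31. The median difference was 0.06 on the log2 scale over the 45 genes and 0.10 over all genes. Median-of-ratios scaling, which sets the typical gene to no difference, moved the median of all genes to 0.01 and that of the 45 genes to -0.04, so the sign of the latter depends on the scaling. With that scaling 17 genes were called (29.3% of all genes), 7 higher (14.6% of all genes) and 10 lower (14.7%), of which all 7 higher and 7 of the lower ones were also called on the deposited scale. The other 7 of the 14 higher genes, *Psmd9* and *Psmd2* among them, were not called with it.

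The cap and the core differed in what was called. Of 17 cap genes, 8 were higher in mice labelled KO and 0 lower (median 0.13 on the log2 scale), whereas of 14 core genes 2 were higher and 3 lower (median -0.01). With median-of-ratios scaling 4 cap genes were higher and 1 was lower (median 0.04), and 0 core genes were higher and 4 lower (median -0.10). For comparison, 23.5% of all genes were higher and 10.2% lower on the deposited scale. Leaving out the library that stood apart, 8 cap genes were higher and 0 lower (median 0.15), and 2 core genes were higher and 2 lower, with a median of 0.03, so the sign of the core genes' median depends on that library. The difference between cap and core itself was not tested.

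The 6 genes with the smallest p included 4 of the cap, and these were higher in mice labelled KO under either scaling. *Psmc1*, an ATPase of the ring, had a lowest, median and highest value of 105, 128 and 142 CPM in control mice with tumour cells (n = 20) and of 144, 168 and 180 CPM in mice labelled KO (n = 12). Its ranges in these groups did not overlap, which held for 2.22% of the 45 genes (*Psmc1* alone) and for 0.903% of all genes. The difference was 0.38 on the log2 scale (standard error 0.048, limma adjusted p = 1.06e-06). At every timepoint its mean was higher in mice labelled KO, with 161, 163, 165 and 171 CPM against 123, 135, 126 and 125 CPM from ZT3 to ZT21.

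The lid genes *Psmd6* and *Psmd12* encode subunits of the scaffold that holds the deubiquitinase. *Psmd6* had 89.4, 101 and 113 CPM (lowest, median, highest) in control mice with tumour cells and 111, 124 and 138 CPM in mice labelled KO, a difference of 0.30 (standard error 0.042, limma adjusted p = 3.47e-06). *Psmd12* had 80.5, 93.9 and 115 CPM against 102, 117 and 128 CPM, a difference of 0.29 (standard error 0.045, limma adjusted p = 1.63e-05). In both genes the ranges overlapped, in *Psmd6* only at their ends. The ATPase gene *Psmc4* had 165, 196 and 230 CPM against 205, 235 and 256 CPM, a difference of 0.25 (standard error 0.043, limma adjusted p = 5.45e-05). With median-of-ratios scaling the difference of *Psmc4* was 0.16 (limma adjusted p = 0.03), and those of *Psmc1*, *Psmd6* and *Psmd12* were 0.28, 0.21 and 0.20.

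Assembly chaperones moved in both directions. *Psmd5*, which encodes a chaperone of the base, had 38.4, 55.8 and 65.5 CPM in control mice with tumour cells and 51.6, 73.3 and 85.4 CPM in mice labelled KO, 0.38 higher (standard error 0.071, limma adjusted p = 0.000178). *Psmg2*, of the core assembly, was 0.35 higher. *Psmd9*, another chaperone of the base, was 0.28 higher on the deposited scale but was not called with median-of-ratios scaling (0.19, limma adjusted p = 0.135). *Psmg4*, which acts in the assembly of the alpha ring, was lower: it had 85.1, 109 and 152 CPM in control mice with tumour cells and 46.9, 84.0 and 112 CPM in mice labelled KO, a difference of -0.48 (standard error 0.097, limma adjusted p = 0.000352). Its ranges overlapped widely, and without the library that stood apart, which held the lowest value, the lowest was 62.5 CPM and the difference -0.41.

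In the core, the beta subunit genes *Psmb4* and *Psmb7* were lower by the same amount, 0.28. *Psmb4* had 159, 187 and 219 CPM in control mice with tumour cells and 109, 157 and 192 CPM in mice labelled KO (difference -0.28, standard error 0.057, limma adjusted p = 0.000486). *Psmb7* had 177, 208 and 270 CPM against 114, 182 and 207 CPM. Without the library that stood apart the lowest values in mice labelled KO were 144 CPM for *Psmb4* and 152 CPM for *Psmb7*, and the differences were -0.24 and -0.22, both still called by limma. The other catalytic genes were not called: *Psmb5* differed by -0.02 (95% confidence interval -0.15 to 0.10) and *Psmb6* by 0.06 (-0.08 to 0.20), and by 0.0072 and 0.11 without the library that stood apart. With median-of-ratios scaling *Psmb6* differed by -0.035, so neither sign is settled. The interferon-inducible activators *Psme1* (-0.22) and *Psme2* (-0.23) were lower and *Psme3* (0.25, and 0.16 with median-of-ratios scaling) was higher, while *Psme4* missed the threshold on the deposited scale (-0.25, limma adjusted p = 0.0553) and was called with median-of-ratios scaling (-0.34, limma adjusted p = 0.00387). *Psme1* had 1126, 1344 and 1539 CPM in control mice with tumour cells and 861, 1181 and 1364 CPM in mice labelled KO. *Psme2* had 2245, 2742 and 3526 CPM against 1757, 2473 and 2964 CPM, and *Psme3* 98.9, 130 and 168 CPM against 132, 152 and 180 CPM. The ranges overlapped in all 3 genes. Without the library that stood apart the lowest values were 982 CPM for *Psme1* and 1936 CPM for *Psme2*, with differences of -0.18 and -0.19, both called by limma.

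**Figure D3:**
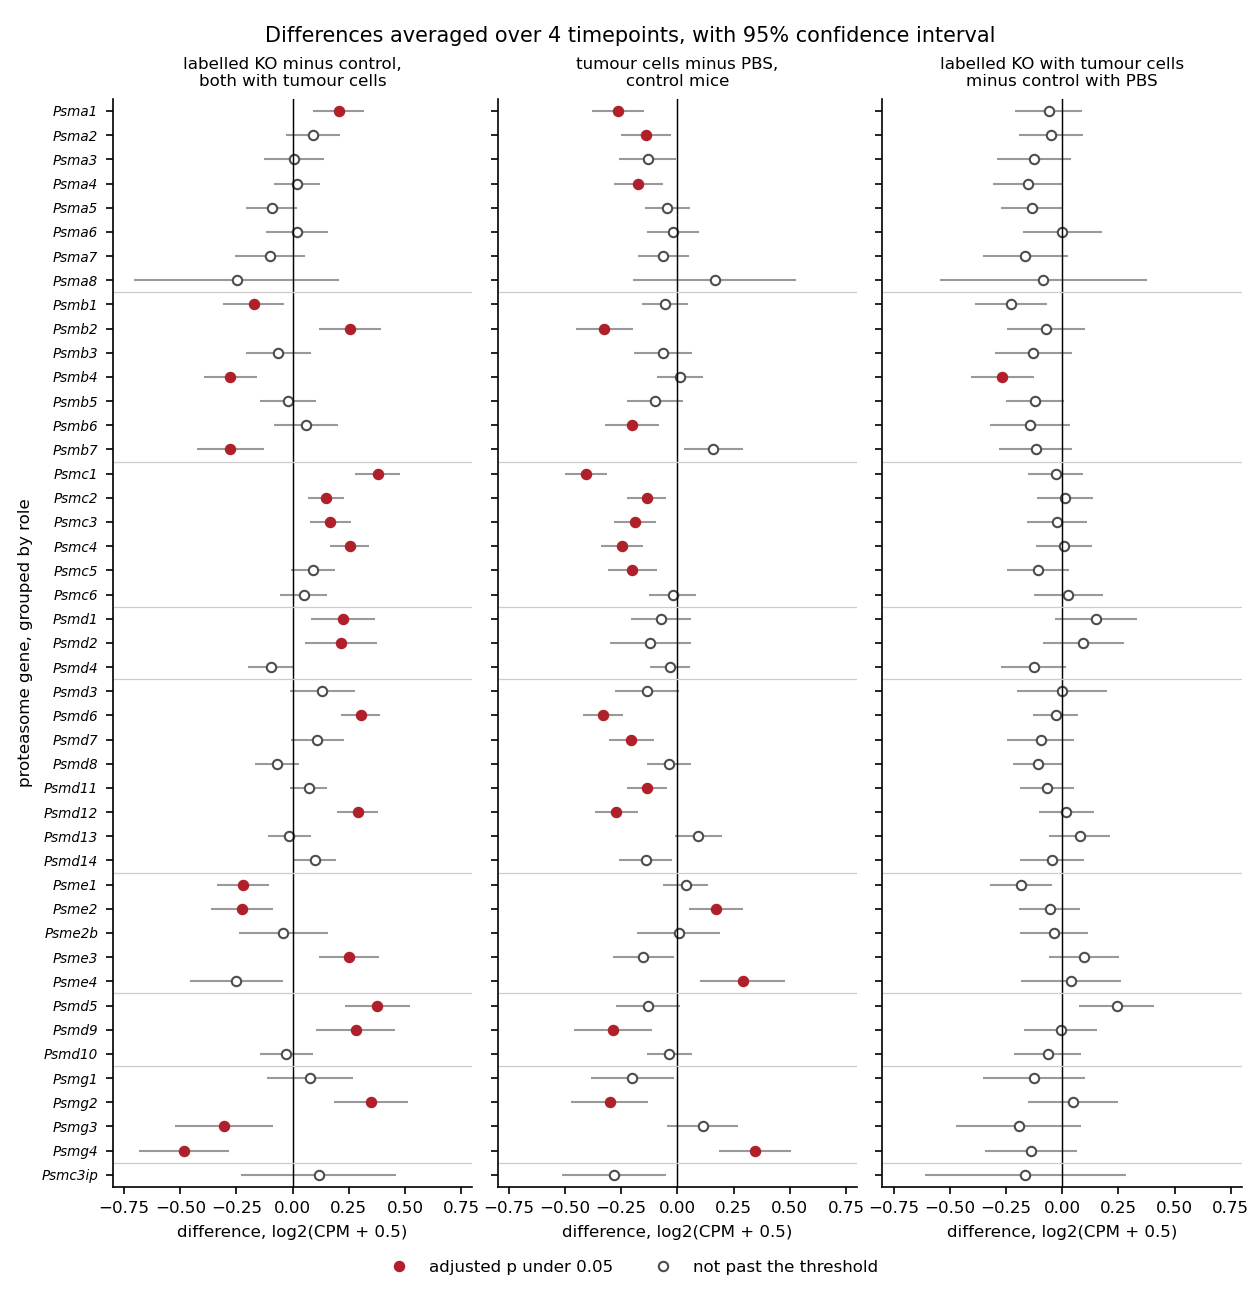
Difference on the log2(CPM + 0.5) scale of each of the 45 genes, averaged over the timepoints, with its 95% confidence interval, in 3 comparisons (filled points, limma adjusted p under 0.05). The first and second comparisons share the control mice with tumour cells, so their opposite signs are not independent; in the third, which leaves that group out, the 1 filled point is *Psmb4*.

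In control mice, tumour cells against PBS gave 19 of 45 genes (42.2%) called by limma, against 37.9% of all genes. Of these, 3 were higher with tumour cells (6.67%, against 13.3% of all genes) and 16 lower (35.6%, against 24.6%), and 0 differed 2-fold (6.24% of all genes), with a median difference of -0.13 over the 45 genes and -0.04 over all. With median-of-ratios scaling 14 were called (37.7% of all genes), 5 higher (17.4%) and 9 lower (20.3%), with a median of -0.08 and 3 higher and 9 lower calls shared with the deposited scale. Of the cap genes 9 of 17 were lower and 0 higher (median -0.14; 5 lower and 1 higher with median-of-ratios scaling, median -0.09), and of the core genes 5 of 14 were lower and 0 higher (median -0.08; 2 lower and 1 higher, median -0.03). Of all genes 24.6% were lower on the deposited scale.

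*Psmc1* had the smallest p here too, with 158, 163 and 193 CPM in sham-injected mice against 105, 128 and 142 CPM with tumour cells (difference -0.41, standard error 0.045, limma adjusted p = 4.81e-08). *Psmd6* followed, with 114, 128 and 137 CPM in sham-injected mice against 89.4, 101 and 113 CPM with tumour cells (difference -0.33, standard error 0.043, limma adjusted p = 6.39e-07). For these 2 genes (4.44% of 45) the ranges did not overlap, as for 2.15% of all genes. The next smallest p were those of *Psmd12* (-0.27), *Psmc4* (-0.25), the beta subunit gene *Psmb2* (-0.33) and the alpha subunit gene *Psma1* (-0.26), all lower with tumour cells. *Psmb2* had 251, 316 and 406 CPM in sham-injected mice against 212, 249 and 325 CPM with tumour cells (standard error 0.062, limma adjusted p = 0.000137). *Psma1* had 277, 334 and 383 CPM against 235, 279 and 328 CPM (standard error 0.056, limma adjusted p = 0.000426), and in both genes the groups overlapped.

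The genes higher with tumour cells were *Psmg4* (0.34, standard error 0.079, limma adjusted p = 0.000989), *Psme4* (0.29, adjusted p = 0.0141 with limma) and *Psme2* (0.17, adjusted p = 0.0218 with limma). *Psmg4* had 78.8, 84.7 and 117 CPM in sham-injected mice, and *Psme4* had 22.4, 28.2 and 36.0 CPM against 22.4, 36.9 and 55.2 CPM with tumour cells. In both genes the groups overlapped. *Psme1*, the partner of *Psme2*, was not called (0.04, 95% confidence interval -0.06 to 0.14). Of the catalytic genes, *Psmb6* was lower by 0.20 on the deposited scale but not with median-of-ratios scaling (-0.15, limma adjusted p = 0.114), *Psmb5* differed by -0.10 (-0.22 to 0.03) and *Psmb7* by 0.16 (0.03 to 0.29, limma adjusted p = 0.0527), which was called with median-of-ratios scaling (0.21, limma adjusted p = 0.048).

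**Figure D4:**
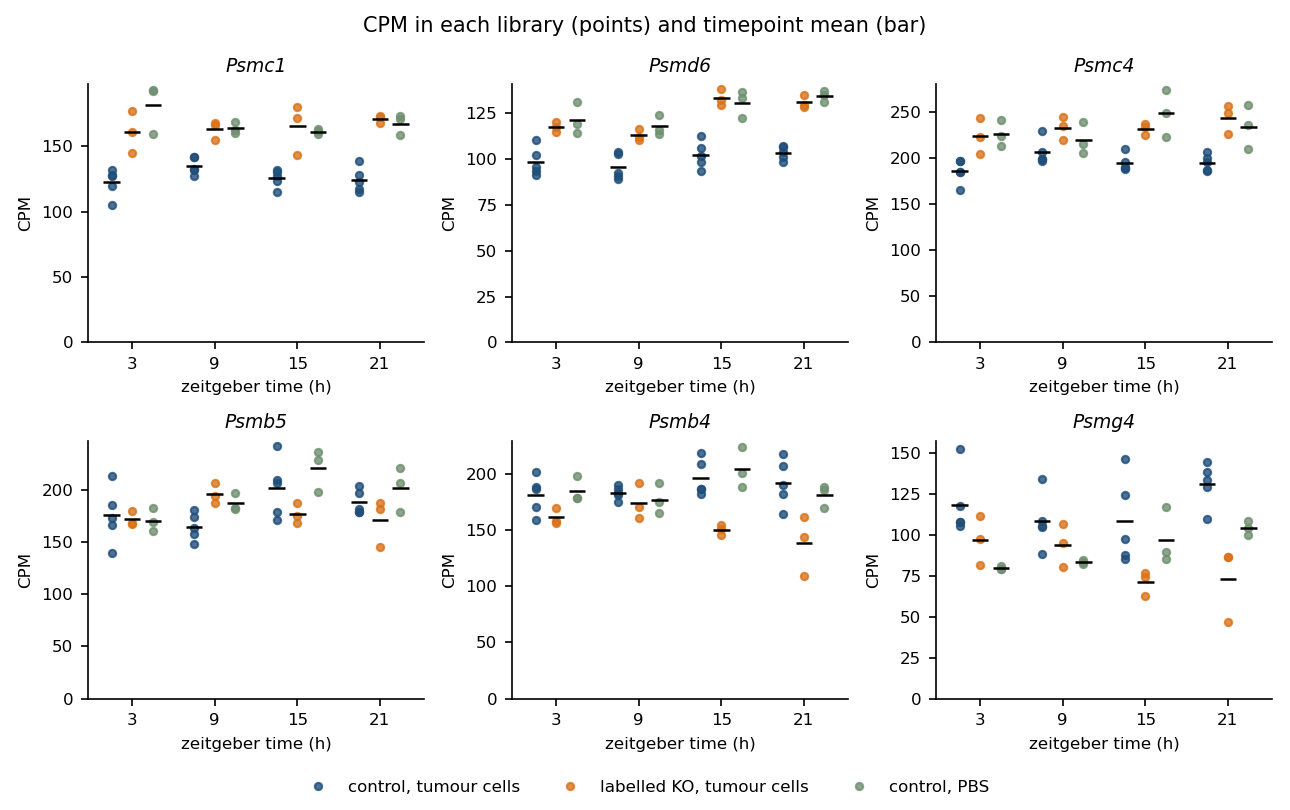
CPM of 6 proteasome genes in each of the 44 libraries by zeitgeber time, with the timepoint mean as a bar; each axis starts at 0. For *Psmc1* the control mice with tumour cells lie at 105 to 142 CPM, below both other groups at every timepoint, whereas for *Psmb5* the groups lie together.

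The groups that differed from control mice with tumour cells were then set against each other, a comparison chosen after these results were seen. Between mice labelled KO with tumour cells and sham-injected control mice, which differ in both genotype and treatment, 1 of 45 genes was called by limma (2.22%, against 9.73% of all genes), 0 were higher (5.43% of all genes), 1 was lower (4.3%), 0 differed 2-fold (1.04%), and the ranges of 0 genes failed to overlap (0.159%). An unadjusted p under 0.05 was found for 6 (13.3%, against 27.7%), and other settings called up to 4 (9.9% to 20.8% of all genes in the settings that called more than 1). The gene called was *Psmb4*, with 109, 157 and 192 CPM in mice labelled KO and 165, 187 and 224 CPM in sham-injected mice (difference -0.27, standard error 0.068, limma adjusted p = 0.0207). The difference was -0.23 without the library that stood apart (limma adjusted p = 0.0254). *Psmc1* differed by -0.03 (95% confidence interval -0.15 to 0.09), *Psmd6* by -0.03 (-0.13 to 0.07) and *Psmc4* by 0.01 (-0.12 to 0.13). For 43 of the 45 genes the interval lay within ±0.5.

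Several other measures moved with the same groups. Genes of dissociation stress had sums of 4793 to 8862 CPM with tumour cells in control mice, of 7999 to 12546 in mice labelled KO and of 8847 to 14398 in sham-injected mice. Of these 11 genes, 8 were higher and 1 lower in mice labelled KO, and 2 higher and 9 lower with tumour cells than with PBS. Ribosomal protein genes summed to 29818 to 48510 CPM (median 34509), 13207 to 34278 (27453) and 27168 to 42639 (32419). Markers of NK cells (8 genes, all tested) summed to 40.4 to 88.1, 62.7 to 180 and 111 to 498 CPM, with 5 of 8 higher in mice labelled KO and 8 of 8 lower with tumour cells than with PBS. Markers of T cells (17 genes) summed to 521 to 1046, 654 to 1516 and 783 to 1696 CPM. In mice labelled KO 6 were higher and 1 lower, and with tumour cells against PBS 1 was higher and 14 lower. Of all genes, 23.5% were higher and 10.2% lower in mice labelled KO, and 13.3% higher and 24.6% lower with tumour cells. The 7 of 17 T cell markers called between genotypes lie near the 33.7% of all genes called. Macrophage markers (6 genes) summed to 30.3 to 83.7, 54.6 to 261 and 80.0 to 165 CPM. Of these, 4 were higher in mice labelled KO and 4 lower with tumour cells than with PBS. B cell markers (10 genes) summed to 44.5 to 73.3, 56.1 to 173 and 83.3 to 138 CPM. Of the 9 tested, 3 were higher in mice labelled KO and 5 lower with tumour cells than with PBS. Of the 14 dendritic-cell markers 0 were called between genotypes, and 2 were higher and 4 lower with tumour cells than with PBS. Between genotypes 1 of 4 granulocyte markers was higher, and 0 of 2 erythroid and 0 of 2 melanoma markers were called. With tumour cells against PBS, 1 granulocyte and 1 melanoma marker were lower and 1 erythroid marker was higher. The part of these measures in the differences of proteasome genes, and that of depth, was not tested. In sorted bulk cells a change in the makeup of the sample and a change of RNA per cell cannot be told apart.

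The core genes varied together between mice, and the cap genes did so less. After subtraction of the timepoint means of each group, the mean Pearson correlation between pairs of the 14 core genes was 0.76 in control mice with tumour cells (20 libraries), 0.85 in mice labelled KO (12) and 0.63 in sham-injected mice (12). Between pairs of the 17 cap genes it was 0.08, 0.14 and 0.33, and between core and cap genes 0.09, 0.17 and 0.26, against 0.06, 0.01 and 0.01 over all genes tested. Without the library that stood apart, the value for the core in mice labelled KO was 0.52 (11 libraries). These correlations are descriptions over genes of the same libraries, which share depth and composition.

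The mean of the core genes followed the ribosomal protein genes. Across the libraries of control mice with tumour cells, the mean log2 level of the core and the log2 sum of ribosomal protein genes had a Pearson r of 0.85 and a Spearman rho of 0.87 (n = 20), and r was 0.81 without the 2 libraries farthest from the median sum. In mice labelled KO r was 0.96 and rho 0.93 (n = 12), and r was 0.84 without 2 libraries and 0.87 without the library that stood apart alone. In sham-injected mice r was 0.64 and rho 0.55 (n = 12), and r fell to 0.31 without 2 libraries, so there the relation rests on them. For the cap, r was -0.27, -0.01 and -0.38 in the same order, and 0.01, -0.38 and -0.29 without the 2 farthest libraries. In mice labelled KO it was -0.52 without the library that stood apart alone, so the cap values rest on few libraries. With the summed dissociation genes, the core mean had an r of -0.07, -0.72 and -0.17 (-0.11, -0.79 and -0.31 without the 2 farthest libraries), and the cap mean one of -0.41, -0.25 and -0.27 (-0.29, -0.25 and 0.11). With the reads on genes, the core mean had an r of -0.28, 0.01 and -0.05 (-0.22, -0.10 and -0.73), and the cap mean one of 0.06, 0.57 and 0.22 (-0.10, 0.66 and 0.07). No p is given, since the scores are means over genes chosen here.

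**Figure D5:**
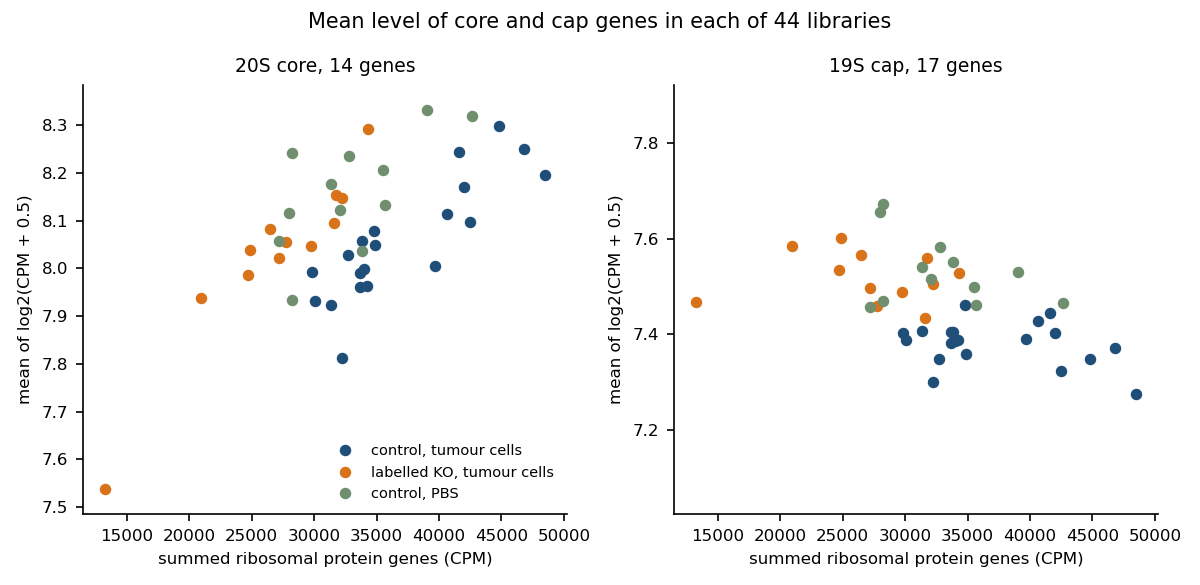
Mean log2(CPM + 0.5) of the 14 core genes (left) and the 17 cap genes (right) in each of 44 libraries against the summed ribosomal protein genes in CPM; both vertical axes span the same distance and neither starts at 0. The core mean rises with the ribosomal sum, with the library that stood apart at the far left (13207 CPM), and the cap mean does not rise with it, while control mice with tumour cells lie lowest on the right.

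On the deposited scale, the cap means of control mice with tumour cells lay low, and their range (7.27 to 7.46) overlapped those of mice labelled KO (7.43 to 7.601) and sham-injected mice (7.46 to 7.67) only at the ends. The size of this gap depends on the scaling, since the cap genes' median difference between mice labelled KO and these mice was 0.13 on the deposited scale and 0.04 with median-of-ratios scaling. The mean of the 17 cap genes on the log2 scale was 7.38 ± 0.046 in control mice with tumour cells (SD, n = 20), 7.52 ± 0.052 in mice labelled KO (SD, n = 12) and 7.53 ± 0.073 in sham-injected mice (SD, n = 12). That of the 14 core genes was 8.06 ± 0.12, 8.03 ± 0.18 and 8.16 ± 0.12, with wide overlap, and 8.08 ± 0.095 in mice labelled KO without the library that stood apart.

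The other genes of the pathway, from a list that holds ubiquitin, the immunoproteasome, shuttle proteins and regulators of proteasome genes, were tested with the same fits (28 of 32 genes). With limma 0 of 28 were called by any test of time in any group, where 1 to 4 had an unadjusted p under 0.05. Between mice labelled KO and control mice with tumour cells 8 were higher and 8 lower (23.5% and 10.2% of all genes). The polyubiquitin gene *Ubb* was lower (-0.48), as were the ubiquitin fusion gene *Rps27a* (-0.49) and the immunoproteasome genes *Psmb9* (-0.31), *Psmb10* (-0.24) and *Psmb8* (-0.19). The cap-bound ubiquitin receptor gene *Adrm1* (0.29), the deubiquitinase gene *Uchl5* that it recruits (0.42) and the stress regulator gene *Nfe2l2* (0.52) were higher. Between tumour cells and PBS in control mice 6 were higher (13.3% of all genes), among them *Ubb* (0.47), and 5 lower (24.6%), among them *Adrm1* (-0.26), *Uchl5* (-0.41) and *Nfe2l2* (-0.42), while *Psmb8*, *Psmb9* and *Psmb10* differed by 0.00, 0.04 and 0.01. The 11 called of 28 lie near the 37.9% of all genes called.

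The promoters of the 45 genes were searched for motifs of regulators known for proteasome or clock genes: the antioxidant response element TGACNNNGC, bound by NRF1 (gene *Nfe2l1*), which drives proteasome genes when proteolysis fails, the CCAAT box, and the E-box CACGTG, bound by BMAL1 with CLOCK. Of the 45 genes, 37 matched a RefSeq promoter of 300 bases (250 before to 50 after the start, GRCm38.p6), among 9626 genes tested with one. On either strand, TGACNNNGC stood in 6 of 37 (16.2%, against 17.3% of all promoters), CCAAT in 13 (35.1%, against 42.7%) and CACGTG in 3 (8.11%, against 11.5%). None of these shares was above that of all promoters. TGACNNNGC and CACGTG are shown with their surroundings, as written in the direction of the gene with the motif in capitals, where the whole motif lies before the start site, for genes that were called or that carry catalytic activity, and, for the E-box, for every gene with one. The gene *Psma4* encodes an alpha subunit. The start site used for *Psmb6* lies within the annotated gene, which begins at position 70525324, so its motif lies inside that gene.

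*Psmb5* (TGACNNNGC), chr14:54618024-54618052, minus strand: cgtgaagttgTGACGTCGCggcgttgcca
*Psmb6* (TGACNNNGC), chr11:70525338-70525356, plus strand: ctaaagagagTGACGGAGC
*Psmd12* (TGACNNNGC, reverse), chr11:107479278-107479299, plus strand: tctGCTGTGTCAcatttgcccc
*Psmd9* (TGACNNNGC), chr5:123228149-123228177, plus strand: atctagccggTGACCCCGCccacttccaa
*Psmd9* (CACGTG), chr5:123228129-123228154, plus strand: atctgaaaacCACGTGgtctatctag
*Psme3* (CACGTG), chr11:101316159-101316184, plus strand: ctgcgcagggCACGTGctcatcctcc
*Psma4* (CACGTG), chr9:54950709-54950734, plus strand: ctgcacagtcCACGTGggcagactga

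A match describes letters and not a bound site. None of the 3 genes with an E-box was called for time in any group, and their highest timepoint means differed from the lowest by 0.19 to 0.23 on the log2 scale in control mice with tumour cells. Among genes higher in mice labelled KO, 11 had a promoter, of which 2 held TGACNNNGC and 2 CACGTG. Among the lower ones 5 had a promoter, of which 0 held either motif.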

How the data were processed

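RNA of sorted dendritic cells from 44 mice was sequenced as single reads of 50 bases. Per the study's methods, the authors aligned reads to mm10 with STAR, counted them per gene with HTSeq 0.9.1 and scaled them by library size with edgeR; the deposited values are CPM, and every column sums to 1000000. Dividing by the smallest step between low values, taken as 1 read, gave whole reads for 89.1% to 91.6% of values per library (tolerance 0.02 reads), so no count model was run and log2(CPM + 0.5) was tested with limma 3.58.1 (R 4.3.3) on the 11963 genes that reached 1 CPM in 5 or more libraries; 2736 were left out. p-values were adjusted by Benjamini-Hochberg over all genes tested. Fold changes are on this scale, which understates low genes.

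Each group was fitted on its own for time (F test, 24-h cosinor, ZT9 against ZT21), and pairs of groups together for effects averaged over timepoints and interactions. Members and gene lists were chosen with earlier results of these data known. Values are given for the catalytic subunits, the activators, *Psmd4*, *Psmd14*, up to 6 genes with the smallest p of each comparison and the genes of highest and lowest level; other genes are given by count, range or single value within their role. The labels do not say which mice belonged to which of the experiments. Replicates were mice, so p-values measure the spread between them within this set. No 2 libraries held identical values (0 pairs). Promoter sequences came from RefSeq (GRCm38.p6). Alternatives were another pseudocount (1 or 0.1), a minimum mean of 10 CPM, no filter, median-of-ratios scaling, an intensity trend, array weights, 1 fit over all libraries, a replicate block and leaving out each library. Scripts were tested on simulated data. Figures used matplotlib 3.10.9.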

Additional observations from a re-analysis of the deposited data

Results flagged for a closer look

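In control mice with tumour cells, the highest or lowest of the 5 libraries of a timepoint was tested for standing apart (Dixon's test) in 120 groups of values, from 29 genes and the mean of all 45 genes at 4 timepoints. Values stood apart in 7, and chance gives about 1 in 20 groups. At ZT3, replicate 3 was the highest for the beta subunit genes *Psmb1* (431 CPM, against 321 to 350 in the others) and *Psmb7* (270 CPM, against 183 to 204) and for the chaperone genes *Psmg3* (34.8 CPM, against 23.4 to 26.5) and *Psmg4* (152 CPM, against 105 to 118). This library also had the highest sum of ribosomal protein genes of all 44, 48510 CPM. At ZT9, replicate 1 was the highest for the lid gene *Psmd12* (115 CPM, against 93.7 to 94.7) and for *Psmg3* (36.7 CPM, against 22.4 to 26.0). At ZT21, replicate 2 was the highest for *Psmg3* (32.7 CPM, against 27.0 to 27.9).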

How the results depend on the processing

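The count of 0 proteasome genes called for time was the same under every alternative in each group, except that limma with array weights called 3 of 45 in control mice with tumour cells (20.6% of all genes). The comparison of mice labelled KO with sham-injected mice moved from 1 gene to 3 with median-of-ratios scaling (9.9% of all genes) and with a mean of at least 10 CPM (17.5%), and to 4 with an intensity trend (13.4%), with array weights (20.8%) and in 1 fit on all 44 libraries (15.9%). Leaving out single libraries gave 1 to 4 there (6.11% to 15.2% of all genes), 4 without replicate 3 of mice labelled KO at ZT21. The ratio of the highest to the lowest core gene was 4.393 per kb of exon union and 5.358 per kb of the longest transcript. The cause of these moves was not tested. Of 762 alternative values of 28 genes (those of the naming rule), 731 stayed on the same side of the threshold, 30 passed it in addition and 1 no longer did (*Psmb6* between tumour cells and PBS with median-of-ratios scaling), and 0 of those called changed direction, while 9 uncalled values, all of at most 0.14 on the log2 scale, changed sign. The 28 genes include those with the smallest p of each comparison, which makes a kept call more likely. Outside the 762 values, 7 of the 21 genes called between genotypes lost their call with median-of-ratios scaling, among them *Psmd9* (0.19, limma adjusted p = 0.135) and *Psmd2* (0.12, limma adjusted p = 0.198). Between tumour cells and PBS, all 3 higher genes but only 9 of the 16 lower ones kept their call with it. With the replicate number as a block, 22 genes differed between genotypes (27.4% of all genes), 17 between treatments (30.8%), 1 between mice labelled KO and sham-injected mice (8.09%), and 0 in the time and interaction tests. Deviations of same-numbered libraries correlated by -0.24 to 0.17, and those of differently numbered ones by -0.21 to 0.27, so no pairing by number was seen. A batch that does not follow the numbers cannot be seen in this way. Depth and the number of mice limit the precision, most for *Psma8*, at about 1 CPM.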
